A study of Mus musculus with 2 samples.

Results

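The Myc family and a small set of its growth targets were followed in 1 scRNAseq library of heart and liver cells from mouse pups. The 8 genes were the family members Myc, Mycn and Mycl, their partner Max, the antagonist Mxd4, and the targets Odc1, Ncl and Npm1, out of 21951 genes and transgene sequences in the matrix. They were chosen by name, as the members of a pathway. Levels were UMIs (unique molecular identifiers, each standing for 1 captured RNA molecule) per 1000000 UMIs of all genes in the same cells, written CPM.

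All groups were C57BL/6 pups collected at P6-P7, given 40 mg/kg 4-hydroxytamoxifen at postnatal day 3 and dissected 3 days after. The control, iSuRe-Cre and iSuRe-HadCre animals each gave a heart and a liver sample, labelled with 6 different hashtag antibodies and loaded together. By the labels both iSuRe alleles were combined with Cdh5-CreERT2, a tamoxifen-dependent Cre driven by an endothelial promoter. The iSuRe-Cre transgene keeps on expressing MbTomato and Cre once recombined, whereas the iSuRe-HadCre allele at Rosa26 expresses Cre transiently and then the MbTomato reporter. Floxed Notch1 alleles of the iSuRe groups were read from a figure panel of the study, since no label names them, and the control genotype and the number of pups in each group were not given in the sources used here. The sort for CD31+ MbTomato+ cells fixes which endothelial cells (ECs) could be compared. The study describes other alleles in which Cre is fused to a part of Odc1, and describes iSuRe-Cre and iSuRe-HadCre without that part.

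Myc, Mycn and Mycl encode closely related basic helix-loop-helix leucine zipper transcription factors that bind DNA as dimers with Max. Mxd4 encodes a Max partner of the other kind, a repressor that competes with Myc proteins for Max and is known from resting and differentiating cells. Odc1 encodes ornithine decarboxylase, the enzyme of the first committed step of polyamine synthesis, and is a textbook Myc target. Ncl (nucleolin) and Npm1 (nucleophosmin) encode abundant nucleolar proteins of ribosome assembly and are counted among the growth genes that Myc proteins raise.

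The reference places all members on GRCm38 as protein-coding genes. Myc lies at chr15:61985391-61990374 and Mycl at chr4:122995652-123002485, both on the plus strand, and Mycn at chr12:12936093-12941914 on the minus strand. Max (chr12:76937269-76962201, minus) and Odc1 (chr12:17544794-17551505, plus) share chromosome 12 with Mycn. Mxd4 is at chr5:34173883-34187720, Ncl at chr1:86344719-86359400 and Npm1 at chr11:33152287-33163206, all on the minus strand.

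Promoters are shown for Mycn and Odc1, on which the heart comparison turns, and for Max and Mxd4, which held the palindromic E-box CACGTG, the sequence that Myc and Max dimers bind. Each is the RefSeq window of GRCm38.p6 from 250 bases before to 50 bases after the start, 5′ to 3′ on the gene's strand, with CACGTG in capitals. Windows were found for 6 of the 8 members, and none was used for Myc and Npm1. The Mycn window is chr12:12941787-12942086 (minus), that of Odc1 chr12:17544623-17544922 (plus), that of Max chr12:76962199-76962498 (minus) and that of Mxd4 chr5:34187661-34187960 (minus).
Mycn: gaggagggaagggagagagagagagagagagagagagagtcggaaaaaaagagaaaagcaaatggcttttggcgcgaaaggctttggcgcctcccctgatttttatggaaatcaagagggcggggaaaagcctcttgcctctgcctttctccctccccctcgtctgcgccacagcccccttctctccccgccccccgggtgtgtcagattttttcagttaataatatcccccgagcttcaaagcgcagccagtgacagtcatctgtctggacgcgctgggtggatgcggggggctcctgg
Odc1: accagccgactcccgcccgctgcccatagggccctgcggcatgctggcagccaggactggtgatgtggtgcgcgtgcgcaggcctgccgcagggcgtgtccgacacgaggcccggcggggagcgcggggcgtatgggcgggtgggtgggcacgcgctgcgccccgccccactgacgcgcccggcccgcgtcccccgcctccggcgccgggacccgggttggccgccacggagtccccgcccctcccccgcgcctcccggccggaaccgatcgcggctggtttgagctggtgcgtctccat
Max: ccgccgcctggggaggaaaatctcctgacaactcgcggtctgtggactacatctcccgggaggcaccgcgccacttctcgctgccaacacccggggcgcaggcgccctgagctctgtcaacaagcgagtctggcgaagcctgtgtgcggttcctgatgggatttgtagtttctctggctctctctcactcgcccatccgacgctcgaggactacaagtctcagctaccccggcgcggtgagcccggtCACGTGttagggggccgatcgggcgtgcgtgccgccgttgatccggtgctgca
Mxd4: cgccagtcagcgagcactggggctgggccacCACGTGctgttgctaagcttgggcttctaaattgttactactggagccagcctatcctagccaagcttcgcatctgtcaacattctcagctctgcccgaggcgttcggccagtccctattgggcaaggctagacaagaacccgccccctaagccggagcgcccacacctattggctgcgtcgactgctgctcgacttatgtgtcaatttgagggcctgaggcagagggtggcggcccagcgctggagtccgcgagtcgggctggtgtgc
The E-box began 3 bases before the start in Max and 219 bases before it in Mxd4, and was in 2 of the 6 member windows. Of all 32851 windows of this length, 7.15% held it. GTGGGAA, a sequence bound by the Notch partner Rbpj, was searched on both strands, and was in 0 of the 6 member windows and in 6.38% of all windows. The motifs can overlap by the letters GTG. A match is a description of the letters, and a window without one says nothing of the factor.

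The quality limits (2000 to 75000 gene UMIs, more than 500 genes, mitochondrial and haemoglobin shares below 5%) left 14348 of 2755147 barcodes. Of these, 2391 had exactly 1 hashtag at its minimum of 25 UMIs (140 for the hashtag of iSuRe-Cre liver), 11771 had none, and 186 had 2 or more and were left out as doublets. ECs were the 1988 hashtagged cells with Cdh5, the endothelial cadherin, above 0.9 on the natural log scale of 1 plus 10000 times its share. Heart gave 254 of them from control, 435 from iSuRe-Cre and 311 from iSuRe-HadCre pups, and liver gave 54, 858 and 76. Group totals ran from 624048 to 9341120 UMIs, and the median cell of iSuRe-Cre heart, with 16379 UMIs, was the deepest against 7322 to 9100.0 in the other groups.

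Notch1 checked the labels of the iSuRe groups. It was at 138 CPM in control heart and 160.2 in control liver, and at 12.6 to 30.7 CPM in the 4 iSuRe groups. WPRE, a sequence of the reporter, was at 1055 and 1070.3 CPM in the iSuRe-HadCre groups, 63.5 and 105 in iSuRe-Cre, and 562 and 396 in control. Control thus held more WPRE than iSuRe-Cre, so this sequence did not set the iSuRe groups apart from control. All 6 endothelial markers were detected in every group.

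The control liver cells held little of the sinusoidal markers for their tissue label. Stab2, which marks liver sinusoidal ECs, was at 30.4 CPM there, against 1446 with iSuRe-Cre and 387 with iSuRe-HadCre in liver, and the 5 other sinusoidal markers summed to 276, 1896 and 469 CPM. Control heart held less, with Stab2 at 9.90 and the other sinusoidal markers at 80.9 CPM. Its capillary check markers summed to 3213 CPM against 950.2 in control liver, and its endocardial ones to 246 against 758. Of the control liver cells 1.85% passed the Stab2 gate used below, whereas 24.1% passed the Npr3 gate (called endocardial here) and 29.6% the Gja5 and Vwf gate (large vessels). The largest share, 40.7%, passed the Tcf15 and Fabp4 gate (capillaries). In iSuRe-Cre liver 59.9% of cells passed the Stab2 gate, and in iSuRe-HadCre liver 19.7%. The capillary gate took 21.0% of iSuRe-Cre and 35.5% of iSuRe-HadCre liver cells. Liver comparisons therefore set different mixtures of ECs beside each other. The 3 heart groups, 74.9% to 82.7% of whose cells passed the capillary gate, carry most of the results on the alleles. Notch1 was lower in every iSuRe group than in control of its tissue. In comparisons with control, the reporter allele and the lower Notch1 therefore cannot be told apart.

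With 1 hashtagged sample in each group there was no replicate, so no test, p-value or SD is given. Intervals are 95% and exact (Poisson for levels, conditional for ratios, binomial for shares of cells) and cover counting error only. A member is called higher or lower where its ratio reached 1.5-fold among features with at least 50 UMIs over both groups. Free RNA, read from 24194 barcodes of 10 to 100 UMIs, gives a background beside each level.

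Mycn was higher in the heart ECs of both iSuRe groups than in those of control. Its level was 27.1 CPM (95% interval 21.5 to 33.6) in control, 45.0 (40.6 to 49.8) with iSuRe-Cre and 104 (92.7 to 116) with iSuRe-HadCre in heart. The 3 intervals did not overlap, and all lay above the 8.67 CPM of free RNA (3.74 to 17.1). Relative to control the ratio was 1.66 (1.31 to 2.14) with iSuRe-Cre and 3.83 (3.00 to 4.95) with iSuRe-HadCre in heart. The latter placed Mycn 70th from the highest of 9572 genes, and the former 722nd of 10651. Between the alleles, iSuRe-HadCre heart had 2.30 times (1.98 to 2.68) the Mycn of iSuRe-Cre heart.

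The excess of Mycn was spread over many cells. At least 1 Mycn UMI was found in 18.5% of control heart ECs (13.9% to 23.8%), 43.2% of iSuRe-Cre (38.5% to 48.0%) and 46.0% of iSuRe-HadCre heart ECs (40.3% to 51.7%). Those shares depend on depth, and iSuRe-Cre cells were the deepest. Thinned to 2000 UMIs a cell, as a mean over all draws, they became 4.52%, 8.19% and 19.1%. In macrophage-gated cells, which showed little Mycn, 2.40% had a UMI before thinning. Cells with 3 or more Mycn UMIs numbered 9 of 254 in control, 49 of 435 with iSuRe-Cre and 40 of 311 with iSuRe-HadCre in heart, and the highest single cell held 5, 8 and 11 UMIs. In iSuRe-HadCre heart the 10% of cells with most (32) held 48.4% of the Mycn UMIs, and in control heart (26 cells) 74.4%. This share falls as UMIs rise (322 and 82 in these groups), so it does not compare the spread between groups.

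**Figure D1:**
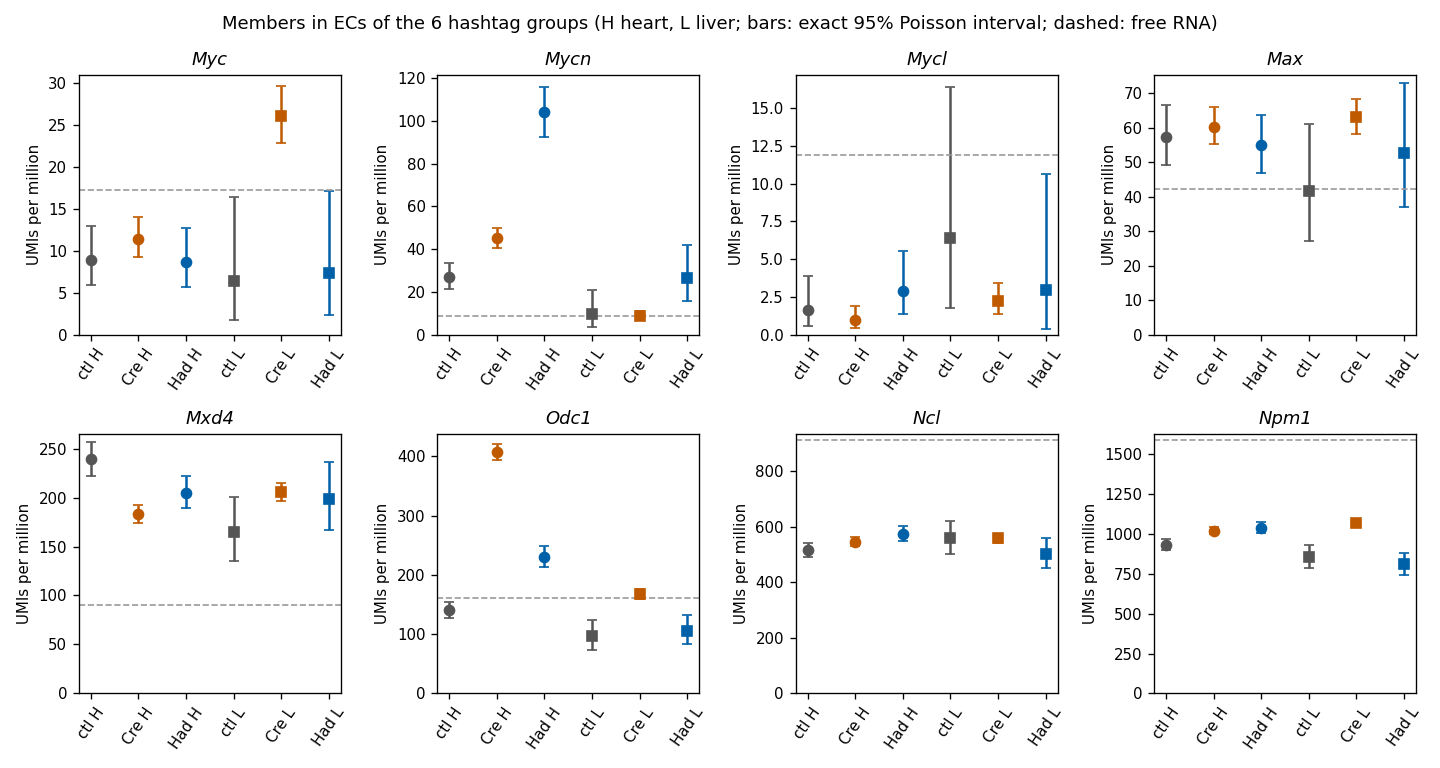
Levels of the 8 members in ECs of the 6 hashtag groups (ctl for control, Cre for iSuRe-Cre and Had for iSuRe-HadCre, H for heart and L for liver), in CPM on linear axes that start at 0, with exact 95% Poisson intervals as bars and free RNA as a dashed line. Mycn stepped up from 27.1 to 45.0 and 104 CPM over the heart groups, Odc1 was highest in iSuRe-Cre heart at 407 CPM, and Myc in iSuRe-Cre liver at 26.1 CPM.

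Odc1 was also higher in both iSuRe heart groups, in the other order. It was at 141 CPM (128 to 155) in control, 407 (393 to 421) with iSuRe-Cre and 230.1 (214 to 248) with iSuRe-HadCre in heart, against 161 (137 to 189.6) in free RNA. Control heart was thus no higher than free RNA, and both iSuRe groups were above it. The ratio to control was 2.89 (2.61 to 3.21) with iSuRe-Cre and 1.64 (1.45 to 1.85) with iSuRe-HadCre in heart. These ratios placed Odc1 224th from the highest of 10651 genes and 763rd of 9572. Between the alleles iSuRe-HadCre heart had 0.566 times (0.521 to 0.614) the Odc1 of iSuRe-Cre heart, so the members with the clearest allele differences went opposite ways. Of control heart ECs 40.6% had an Odc1 UMI, of iSuRe-Cre 77.5% and of iSuRe-HadCre 48.9%, and after thinning 13.2%, 40.5% and 24.9%. In hepatocyte-gated cells, low in Odc1, 57.1% had a UMI at their own depth.

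The other members with enough UMIs differed less in heart. Myc was at 8.91 (5.87 to 13), 11.4 (9.26 to 14) and 8.70 CPM (5.73 to 12.7) in control, iSuRe-Cre and iSuRe-HadCre heart, overlapping one another and the 17.3 CPM (9.91 to 28.2) of free RNA, so its level there could not be told from background. Mycl gave 5, 8 and 9 UMIs over these groups and was counted in none of the comparisons. Max was level across the 3 groups, at 57.4, 60.3 and 54.8 CPM with overlapping intervals.

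Mxd4, the antagonist, was at 239 CPM (222 to 257) in control, 183 (174 to 192) with iSuRe-Cre and 205 (189 to 222) with iSuRe-HadCre in heart. It was below control in both, with ratios of 0.766 (0.700 to 0.838) and 0.859 (0.771 to 0.957) that stayed within 1.5-fold. Ncl (515, 546 and 574 CPM) and Npm1 (933, 1021 and 1041 CPM) differed from control by ratios of 1.06 to 1.12, and free RNA held more of both, at 912 and 1589 CPM.

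Counted together, 2 of the 7 members with enough UMIs (Mycn and Odc1) were higher in iSuRe-Cre than in control heart, where 8.92% of 10651 features were 1.5-fold higher, 9.72% lower and 18.6% past 1.5-fold either way. The same 2 of 7 were higher in iSuRe-HadCre than in control heart, where 11.5% of 9572 features were higher, 2.32% lower and 13.8% past 1.5-fold either way. These comparisons share the control cells. Between the alleles Mycn was higher and Odc1 lower in iSuRe-HadCre, 2 of 7, against 26.2% of 10786 features either way (20.8% higher, 5.40% lower). The members' median log2 ratio was 0.13, 0.16 and 0.03 in the 3 comparisons, beside -0.06, 0.12 and 0.20 over all features.

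Within capillary-gated ECs the heart ratios were nearly the same size. This gate took Cdh5-positive cells with at least 1 UMI of Tcf15 and 3 of Fabp4, genes of heart capillary endothelium, and held 210, 356 and 233 heart cells of the 3 groups. Mycn was at 29.0, 47.7 and 106 CPM in them, ratios to control of 1.65 (1.28 to 2.14) and 3.67 (2.83 to 4.80). Odc1 was at 148, 429 and 232 CPM, ratios of 2.91 (2.61 to 3.24) and 1.57 (1.38 to 1.79). In heart ECs outside all endothelial gates (34, 43 and 65 cells), Mycn was at 23.7, 45.9 and 112 CPM and Odc1 at 122, 446 and 231 CPM, in the same order as in the capillary-gated cells.

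**Figure D2:**
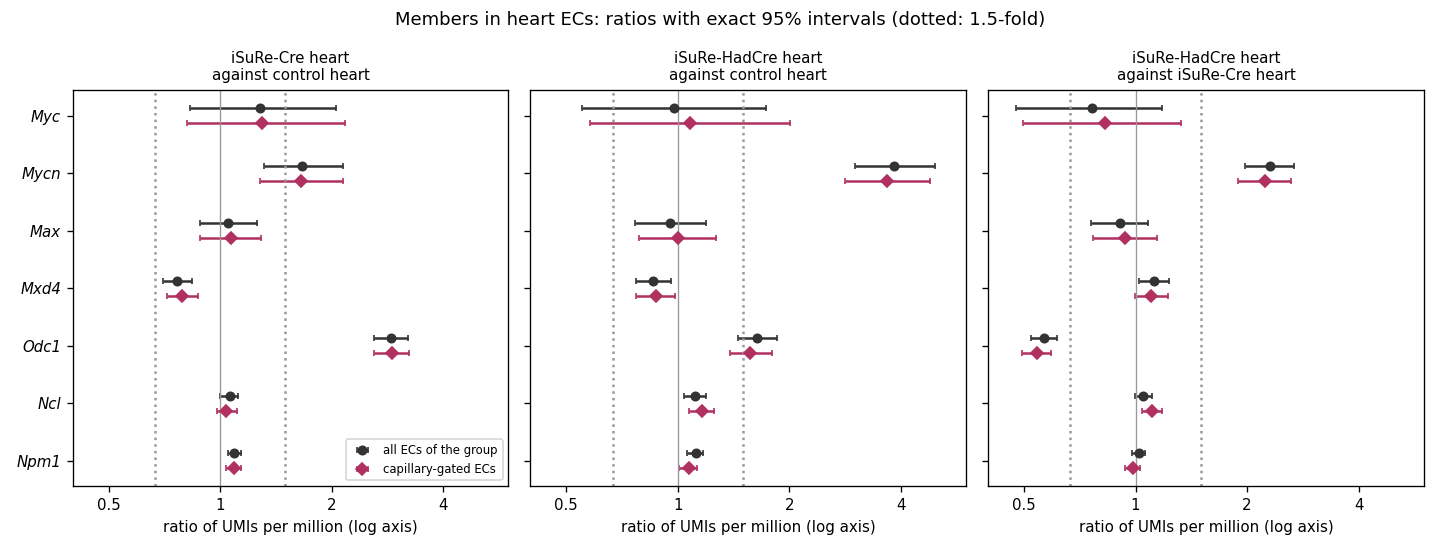
Ratios of the members in heart ECs (log axis) for iSuRe-Cre against control, iSuRe-HadCre against control and iSuRe-HadCre against iSuRe-Cre, over all ECs of a group (circles) and capillary-gated ECs (diamonds), with exact 95% intervals and dotted lines at 1.5-fold; Mycl had too few UMIs. Mycn and Odc1 lie beyond 1.5-fold in all 3 panels, on opposite sides of 1 in the last one.

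Depth, cycling and other cell types moved with the heart groups. Cells with at least 3 UMIs over Mki67, Top2a, Cdk1 and Ccnb1, here called cycling, made up 13.8% of control, 36.6% of iSuRe-Cre and 18.6% of iSuRe-HadCre heart ECs, a share that depends on depth. In cells with no UMI of these 4 genes Mycn had ratios to control of 1.37 with iSuRe-Cre and 3.82 with iSuRe-HadCre in heart, and Odc1 of 2.31 and 1.39, so 1 ratio of each gene fell within 1.5-fold. Among cells of 5000 to 20000 UMIs, a range chosen after seeing the data, Odc1 was at 87.0, 339.8 and 277 CPM in the 3 groups, and Mycn at 29.4, 42.4 and 132 CPM. There iSuRe-HadCre heart had 3.18 times the Odc1 of control and 0.815 times that of iSuRe-Cre, which is within 1.5-fold, and Mycn was 1.44 times control in iSuRe-Cre heart. The 4 hepatocyte markers summed to 359 CPM in iSuRe-Cre heart against 55.1 in control and 43.5 in iSuRe-HadCre heart, none at 0, while hepatocyte-gated cells held 83.7 CPM of Odc1 and 6.50 of Mycn. The 4 capillary check markers, Cd36, Meox2, Car4 and Rgcc, summed to 3213 CPM in control, 1479.6 in iSuRe-Cre and 2441 in the heart of iSuRe-HadCre pups. The 3 mural markers summed to 25.7, 114 and 18.7 CPM and the 3 keratinocyte ones to 8.25, 32.8 and 46.1 CPM, none at 0, and the part of these sets in the Mycn and Odc1 ratios was not tested. The part of free RNA in these ratios was not tested beyond a fixed subtraction of 10% of each group's UMIs, under which Odc1 was 3.14 and 1.72 and Mycn 1.69 and 3.93 times control.

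In the liver groups Myc was higher with iSuRe-Cre than in the others. It was at 26.1 CPM (22.9 to 29.6) in iSuRe-Cre liver, overlapping the interval of free RNA (9.91 to 28.2), and at 6.41 (1.75 to 16.4) in control and 7.32 (2.38 to 17.1) in iSuRe-HadCre liver, groups with 4 and 5 Myc UMIs in all. Relative to iSuRe-Cre liver the iSuRe-HadCre level was 0.280 (0.0902 to 0.663), and relative to control iSuRe-Cre was 4.08 (1.57 to 15.1). Within the Stab2-gated cells of iSuRe-Cre liver Myc was at 32.6 CPM (28.2 to 37.5; 514 cells), against 18.7 (13.7 to 24.9) in its capillary-gated and 20.7 (14.7 to 28.3) in its ungated ECs. As 59.9% of the iSuRe-Cre liver ECs and 1.85% of the control ones passed the Stab2 gate, allele and EC type cannot be told apart here.

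Mycn in liver was at 9.61 CPM (3.53 to 20.9) in control, 8.89 (7.08 to 11) with iSuRe-Cre and 26.4 (15.6 to 41.7) with iSuRe-HadCre. Control and iSuRe-Cre lay at the level of free RNA, and only the iSuRe-HadCre value stood above iSuRe-Cre, by 2.97 (1.68 to 4.98), on 18 UMIs. That ratio ran from 2.47 to 10.5 over the 13 alternatives and was called in 11. Relative to control it was 2.74 (1.04 to 8.44), with 18 and 6 UMIs and so not counted. Odc1 was at 96.1 (73.4 to 124), 167 (159 to 176) and 105 CPM (82.5 to 133), 1.74 times control (1.34 to 2.29) in iSuRe-Cre and 0.630 times iSuRe-Cre (0.490 to 0.798) in iSuRe-HadCre liver. The latter ratio was not called in 4 of 13 alternatives and reached 0.957. Free RNA held 161 CPM of Odc1 (137 to 189.6), so iSuRe-Cre liver lay at that level and the other liver groups below it.

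In counts, 3 of 7 members (Myc, Max and Odc1) were higher in iSuRe-Cre than in control liver, where 14.9% of 10854 features were higher, 16.6% lower and 31.5% past 1.5-fold either way. Max had a ratio of 1.51 (1.02 to 2.34) on 26 control UMIs, and was not called in 5 of 13 alternatives, down to 1.29. Odc1 was not called in 3 of 13, down to 1.23. None of 5 was past 1.5-fold in iSuRe-HadCre against control liver, where 14.2% of 5178 features were (6.84% higher, 7.32% lower). In iSuRe-HadCre against iSuRe-Cre liver 1 of 7 was higher (Mycn) and 2 were lower (Myc and Odc1), against 27.9% of 10852 features either way (14.0% higher and 14.0% lower). Npm1 was 0.759 times iSuRe-Cre (0.696 to 0.827) in iSuRe-HadCre liver, and 0.780 times (0.712 to 0.854) its level in iSuRe-HadCre heart.

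Between the tissues, Mycn was lower in liver than in heart in control and with both alleles. Control ECs had a liver-to-heart ratio of 0.355 (0.127 to 0.807), iSuRe-Cre ECs one of 0.197 (0.154 to 0.251) and iSuRe-HadCre ECs one of 0.254 (0.149 to 0.408). The control ratio rests on 6 liver UMIs and ran from 0.200 to 0.895 over the 13 alternatives, and was called in 10. Within capillary-gated ECs the iSuRe-Cre ratio was 0.332 (0.232 to 0.463). Odc1 was lower in liver as well, by ratios of 0.411 (0.387 to 0.437) with iSuRe-Cre, 0.458 (0.354 to 0.584) with iSuRe-HadCre and 0.684 (0.513 to 0.898), within 1.5-fold, in control. Myc was 2.28 times (1.79 to 2.93) as high in iSuRe-Cre liver as in iSuRe-Cre heart. In control ECs 1 of 6 members was lower in liver (Mycn), against 25.2% of 8171 features past 1.5-fold either way (15.9% higher, 9.29% lower). In iSuRe-Cre ECs 1 of 7 was higher (Myc) and 2 were lower (Mycn and Odc1), against 28.3% of 11756 features (18.9% higher, 9.33% lower). In iSuRe-HadCre ECs 2 of 6 were lower (Mycn and Odc1), against 21.4% of 8586 features (8.91% higher, 12.5% lower).

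**Figure D3:**
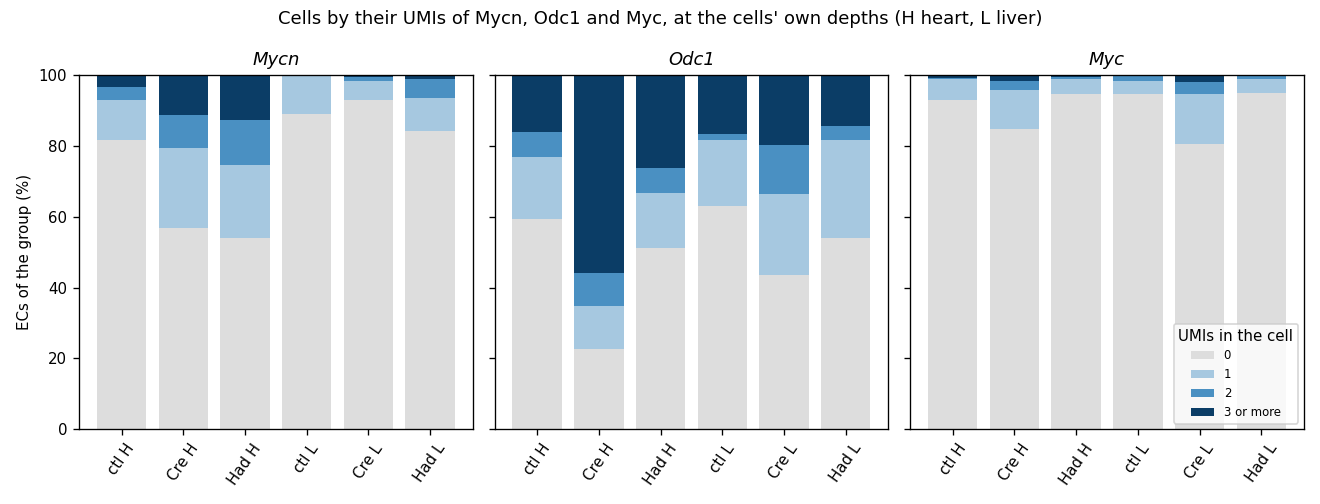
Percent of ECs in each hashtag group (ctl for control, H for heart, L for liver) with 0, 1, 2, or 3 or more UMIs of Mycn, Odc1 and Myc, at the cells' own depths, so that the deeper iSuRe-Cre heart cells show more of every gene. Cells with 3 or more Odc1 UMIs numbered 41 of 254 in control, 243 of 435 with iSuRe-Cre and 82 of 311 with iSuRe-HadCre in heart.

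The wider MAX network gave few further differences in heart. Of 13 genes, 11 had enough UMIs. Against control, Mxd3, a Max partner known from proliferating cells, was higher in iSuRe-Cre heart beside Mycn, at 24.1 against 11.2 CPM (ratio 2.15, 1.49 to 3.19), and none was lower. In iSuRe-HadCre heart 1 of 11 was higher, Mycn itself, and Mxd3 had a ratio of 1.15 (0.709 to 1.87). Of the other antagonists, Mxi1 had ratios of 0.761 (0.645 to 0.899) and 0.867 (0.709 to 1.06), and Mnt of 0.747 (0.513 to 1.10) and 0.886 (0.559 to 1.40). The list's median log2 ratio was -0.09 and 0.05 beside -0.06 and 0.12 over all features. Beside these counts, 8.92% and 11.5% of all features were higher than control, and 9.72% and 2.32% lower.

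Of the 8 polyamine genes, all counted, 3 had higher levels in iSuRe-HadCre heart relative to iSuRe-Cre heart (Azin1 at 1.91, Oaz2 at 1.56 and Sat1 at 1.53) and Odc1 was lower, beside 20.8% and 5.40% of all features. Oaz1 (0.892) and Srm (0.795) were within 1.5-fold. In iSuRe-Cre heart Odc1 was the single one higher than control, and Oaz2, an antizyme that restrains ornithine decarboxylase, and Sat1, which acetylates polyamines for breakdown or export, were lower, with ratios of 0.577 (0.494 to 0.674) and 0.618 (0.554 to 0.691). In iSuRe-HadCre heart Odc1 and Azin1, an antizyme inhibitor, were higher, Azin1 at 176 against 102 CPM (1.73, 1.50 to 2.00), and Oaz2 had a ratio of 0.901 (0.756 to 1.07). Azin1 was also higher in iSuRe-HadCre liver, by 2.59 (1.86 to 3.67) over control and 2.93 (2.42 to 3.52) over iSuRe-Cre. Srm, spermidine synthase, was within 1.5-fold in both heart groups (1.13 and 0.90). Against control heart, 8.92% of all features were higher with iSuRe-Cre and 11.5% with iSuRe-HadCre, and 9.72% and 2.32% lower.

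Few nucleolar and ribosome biogenesis genes passed 1.5-fold against control, while some differed between the alleles. In iSuRe-Cre heart 1 of 24 counted genes was higher than control, Pes1 at 1.52 (1.16 to 2.01), and none lower, with a median log2 ratio of 0.29 beside -0.06 over all features. Nop56, a core protein of the box C/D complexes that guide rRNA methylation, had ratios of 1.48 (1.21 to 1.81) with iSuRe-Cre and 1.43 (1.13 to 1.80) with iSuRe-HadCre in heart. In iSuRe-HadCre heart none of 23 was higher and 1 was lower, Nop2 at 0.643 (0.380 to 1.07), with a median of 0.00 beside 0.12. Against iSuRe-Cre heart 4 of 24 were lower in iSuRe-HadCre heart, Rrp9, Nop2 and Rrs1 among them (0.599, 0.607 and 0.613), and none higher, beside 5.40% of all features lower and 20.8% higher. The list's median there was -0.26 beside 0.20 over all features. Against control heart, 8.92% of all features were higher with iSuRe-Cre and 11.5% with iSuRe-HadCre, and 9.72% and 2.32% lower.

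Among 20 translation and metabolism targets of Myc, 3 of 19 counted were higher in iSuRe-Cre than in control heart and none lower. They were Ccnd1, cyclin D1, at 962 against 457 CPM (2.10, 1.99 to 2.23), Ran, a nuclear transport GTPase (1.55, 1.45 to 1.65), and Ccnd2, cyclin D2 (1.53, 1.40 to 1.68). In iSuRe-HadCre heart 1 of 19 was higher, Ccnd2 at 314 against 188 CPM (1.67, 1.50 to 1.85), and Ccnd1 had a ratio of 1.37 (1.28 to 1.47). Between the alleles 1 of 20 was higher in iSuRe-HadCre heart, Tfrc, the transferrin receptor (1.57, 1.09 to 2.24), and 3 were lower, Ccnd1 at 0.650 among them, with a median of -0.28 beside 0.20 over all features. Eif4ebp1, an inhibitor of cap-dependent translation, had 0.495 times (0.421 to 0.580) its iSuRe-Cre level in iSuRe-HadCre heart, and Ldha, lactate dehydrogenase A, 0.655 times (0.612 to 0.701). The list medians were 0.23 and -0.03 against control, beside -0.06 and 0.12 over all features. Of all features 8.92% were higher and 9.72% lower in iSuRe-Cre than in control heart. With iSuRe-HadCre 11.5% were higher and 2.32% lower than in control heart. Between the alleles 20.8% of all features were higher and 5.40% lower in iSuRe-HadCre heart.

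Of 13 genes for Myc turnover and cofactors, Pim1, a kinase that cooperates with Myc, was higher than control in both iSuRe heart groups, at 1.63 (1.26 to 2.13) and 1.67 (1.24 to 2.26). It was the 1 gene of this list called in iSuRe-Cre heart. Of all features 8.92% were higher and 9.72% lower there, and 11.5% and 2.32% with iSuRe-HadCre. In iSuRe-HadCre heart 2 were called, with Usp28, a deubiquitinase of Myc, at 1.59 (1.03 to 2.50), and Fbxw7, the ubiquitin ligase subunit that marks Myc proteins for degradation, was at 1.41 (1.18 to 1.70). Of 14 cell cycle genes 5 were higher with iSuRe-Cre and 3 with iSuRe-HadCre in heart, Mki67 at 2.63 (2.27 to 3.06) and 2.56 (2.18 to 3.02), and none lower, beside 8.92% and 11.5% of all features higher. The list's medians were 0.35 and 0.26 beside -0.06 and 0.12 over all features. Mcm2 and Mcm5, of the replicative helicase, stayed at 0.923 to 1.09 in both.

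The liver lists are given as counts, since the groups differed in their EC types. Against control, iSuRe-Cre liver had 2 higher and 1 lower of 11 counted in the MAX network, 1 and 1 of 8 polyamine genes, 2 and 0 of 24 nucleolar genes, 5 and 0 of 20 targets, 4 and 0 of 13 turnover genes, and 0 and 0 of 14 cell cycle genes, beside 14.9% of all features higher and 16.6% lower. For iSuRe-HadCre liver they were 0 and 1 of 5, 2 and 0 of 7, 1 and 0 of 14, 0 and 1 of 15, 0 and 1 of 7, and 2 and 0 of 11, in the same order of lists, beside 6.84% and 7.32% of all features. Against iSuRe-Cre liver, iSuRe-HadCre liver had 5 of 24 nucleolar genes and 5 of 20 targets lower, beside 14.0% of all features, with medians of -0.33 and -0.36 beside 0.06 over all features.

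Over cell types the Myc genes took different places. Gates were set by marker UMIs over all barcodes that passed the quality limits, with any or no hashtag. The 4 endothelial gates took Cdh5-positive cells and could share them, with 149 cells in both the Stab2 and the capillary gate and 81 in both the endocardial and the capillary gate. The other gates took cells below the Cdh5 limit, and a cell in more than 1 of those was left out. Of 14 gates, 12 held at least 50 cells, from 53 erythroid to 2571 capillary-gated cells, and their other markers were checked. All of these were detected in their gate, and in 9 gates each was highest there, against 3 of 5 in the sinusoidal, 2 of 4 in the endocardial and 3 of 4 in the macrophage gate. The endocardial check markers summed to 425 to 758 CPM in the liver groups and to 246 to 325 CPM in the heart groups. The word endocardial therefore stands for the Npr3 gate only, and the identity of its cells was not tested. Gates for keratinocytes, chondrocytes and neural cells also held cells, although the library is described as sorted ECs of heart and liver. Each gate is part of 1 library, so the levels are descriptions with counting intervals. Overlap of neighbouring intervals is given as found, and does not show that the levels are equal.

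Myc was highest in erythroid-gated (37.7 CPM, 30.9 to 45.6) and Stab2-gated sinusoidal cells (29.3, 25.7 to 33.3), which overlapped each other and no other gate. The next, chondrocytes, was at 17.0 (12.6 to 22.5), and from there each gate overlapped its neighbour down to neural progenitors or glia at 3.42 (1.99 to 5.47). Only the erythroid interval lay above that of free RNA (9.91 to 28.2), and the sinusoidal one overlapped it. The erythroid-gated cells were very deep, with a median of 57016 UMIs, and 94.3% of them were cycling.

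Mycn was highest in capillary-gated ECs, at 44.2 CPM (41.7 to 46.8), followed by neural progenitors or glia at 27.1 (22.7 to 32.1), and neither overlapped its neighbour. The capillary value pools groups that differ, with 29.0 (22.8 to 36.3) in control heart, which overlaps the neural cells, 15.8 in iSuRe-Cre liver and 106 in iSuRe-HadCre heart. Endocardial (15.5, 12.2 to 19.4), large vessel (11, 6.6 to 17.1) and sinusoidal ECs (10.9, 8.77 to 13.4) came next with overlapping intervals. It was lowest in macrophages (1.82, 0.496 to 4.66) and erythroid cells (0.712, 0.0862 to 2.57). The erythroid gate thus held the highest Myc and the lowest Mycn.

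Mycl was highest in a few non-endothelial gates. It was at 32.4 CPM (27.5 to 37.8) in neural progenitors or glia, 20.4 (16.5 to 24.9) in basal keratinocytes and 6.32 (5.30 to 7.49) in mesenchymal cells. Only the neural interval lay above that of free RNA, and those of keratinocytes and mesenchymal cells overlapped it. The 4 endothelial gates were at 1.96 to 3.46 CPM, and neutrophil (3.76), chondrocyte (3.12), macrophage (2.28) and hepatocyte gates (1.08) were as low, all below the level of free RNA (11.9, 5.95 to 21.3). It was not detected in 53 erythroid-gated cells, which at 3 UMIs of their total allows 1.07 CPM.

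**Figure D4:**
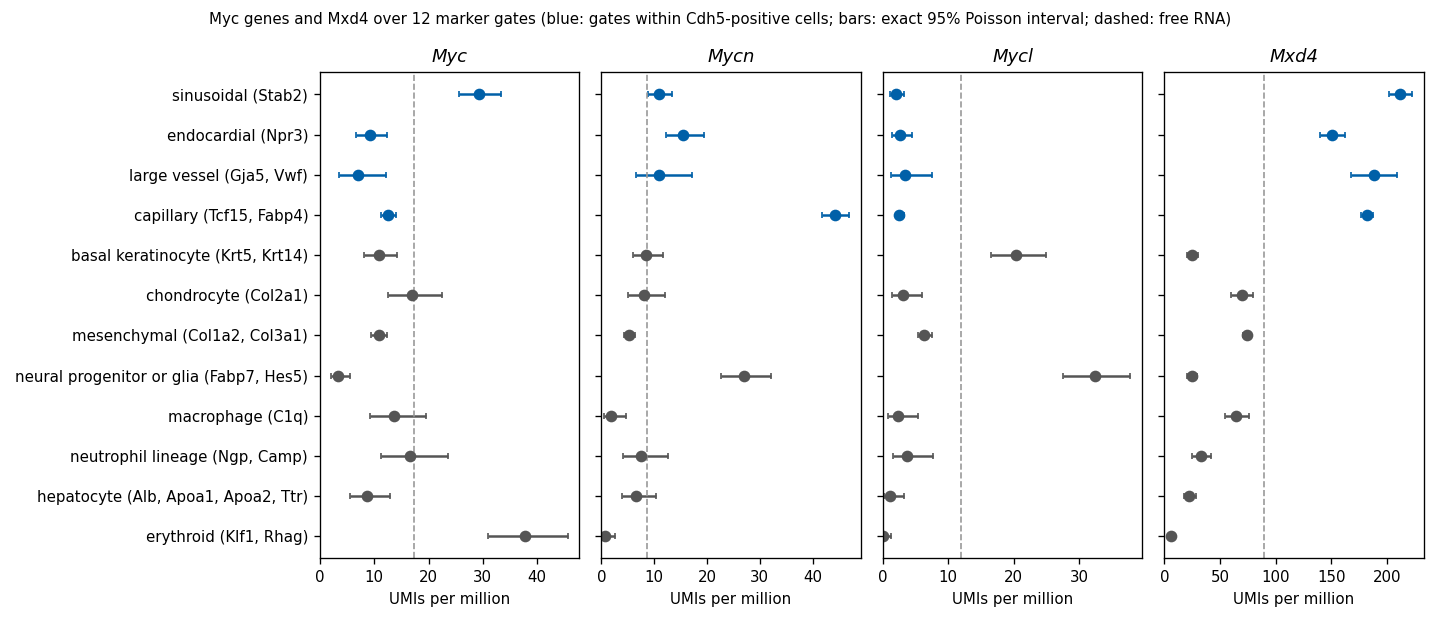
Levels of Myc, Mycn, Mycl and Mxd4 (CPM, linear axes from 0) over 12 marker gates with exact 95% Poisson intervals, the 4 gates within Cdh5-positive cells in blue and free RNA as a dashed line. Mycn peaks in capillary-gated ECs (44.2 CPM), Mycl in neural progenitors or glia (32.4 CPM), and Mxd4 is higher in the 4 endothelial gates (150.3 to 212 CPM) than in the other 8 (5.70 to 74.1 CPM).

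Mxd4 was highest in the endothelial gates. It was at 212 (202 to 222) in sinusoidal, 188 (168 to 209) in large vessel, 182 (177 to 187) in capillary and 150.3 CPM (139.6 to 162) in endocardial cells. The next gate, mesenchymal cells, was at 74.1 (70.4 to 77.8), and erythroid cells, the lowest, at 5.70 (3.26 to 9.25). Free RNA, at 89.9 CPM, lay between the endothelial and the other gates. Max varied least, from 27.1 (21.3 to 33.9) in hepatocytes to 70.5 CPM (61.0 to 81.0) in erythroid cells, with each gate overlapping the next.

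Odc1 was highest in erythroid (313, 292 to 334) and capillary-gated cells (282, 276 to 288), then in sinusoidal (196, 187 to 206) and neural cells (189, 177 to 202), and lowest in large vessel ECs (48.5 CPM, on 84 UMIs). The capillary place depends on the mix of groups, with 148 in control heart and 176 in iSuRe-Cre liver, both below the sinusoidal gate, and 429 in iSuRe-Cre heart. Ncl and Npm1 were highest in the erythroid gate, at 3328 (3261 to 3396) and 6596 CPM (6502 to 6692), followed by keratinocytes at 1239 and 3361 CPM. The endothelial gates stood in the lower part of both orders, at 525 to 605 CPM for Ncl and 857 to 1164 for Npm1.

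By Pearson correlation of log2(CPM + 10) over the 12 gates, among 12882 genes with at least 200 UMIs, the genes most like Myc were Slc25a37, a mitochondrial iron importer of erythroid cells (r = 0.84), Dhx38 (0.80), Plxdc1 (0.79), Ampd2 (0.78) and Bcat2 (0.78). Those most like Mycn were Gprc5b (0.91), Fam131a (0.90), Mcf2l (0.89), Timp4 (0.89) and Akap5 (0.87). Mycl was followed most closely by Ctnnd2 (0.98), Srcin1 (0.97), Chl1 (0.96), Ankrd6 (0.95) and Fzd10 (0.95), several of them known from neural cells. The gates share 1 library and differ in depth, and no test is attached to these values.

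Cycling and other cells of the same group differed in most members. Cycling cells were compared with cells without a UMI of the 4 cell cycle genes, in the 4 hashtag groups and 10 gates with at least 30 cells of each. Mxd4 was lower in cycling cells of all 4 groups, with ratios of 0.508 (control heart), 0.482 (iSuRe-Cre heart), 0.352 (iSuRe-HadCre heart) and 0.419 (iSuRe-Cre liver), each with an interval below 1. In capillary-gated cells it was at 109 CPM in 742 cycling and 256 CPM in 1071 other cells (0.427). Over gates its interval was below 1 in 7 of 10, and the 1 gate with a higher value in cycling cells was the neutrophil lineage, at 1.20 on 31 and 12 UMIs.

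At the cells' own depths, Ncl and Npm1 were higher in cycling cells in 4 of 4 groups and 10 of 10 gates. Their ratios ran from 1.38 to 2.21 and 1.10 to 2.66. Max was lower in cycling cells in 4 of 4 groups and 10 of 10 gates, from 0.545 to 0.877, with intervals below 1 in 3 of each. Odc1 was higher in the 3 heart groups (1.79, 1.81 and 1.76) and level in iSuRe-Cre liver (0.992, 0.881 at the lower bound). Cycling cells were deeper in each, with a median of 20726 against 7396 UMIs in control heart.

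Mycn in cycling cells differed in direction among the EC gates. It was lower in cycling than in other capillary-gated cells, at 32.8 against 58.5 CPM (0.560), and higher in cycling sinusoidal (16.9 against 5.19 CPM, 3.26) and endocardial cells (26.1 against 6.54 CPM, 3.98), each with an interval that left out 1. In iSuRe-Cre liver the ratio was 4.75 on 43 and 13 UMIs. Control heart had a Mycn ratio of 0.557 (0.283 to 1.03) and iSuRe-Cre heart one of 0.848 (0.654 to 1.10). Both intervals included 1. The capillary gate pools groups that differ in Mycn level and cycling share, and the part of that mix in its ratio was not tested. In cells of 5000 to 20000 UMIs the Mycn ratio was 0.610 (0.504 to 0.735) in capillary-gated, 4.54 (2.09 to 10.2) in sinusoidal and 4.50 (1.79 to 12.3) in endocardial cells, and the Mxd4 ratio was 0.361, 0.384 and 0.465. In iSuRe-HadCre heart the Mycn ratio of 0.632 became 0.974 (0.703 to 1.33) in that range. For Npm1 the ratios in chondrocyte and mesenchymal cells turned to 0.911 and 0.985 there. The Npm1 ratio fell from 1.20 to 1.07 (0.983 to 1.17) in iSuRe-Cre heart. In iSuRe-HadCre heart it fell from 2.66 to 1.07 (0.917 to 1.24), and both of these intervals included 1. In iSuRe-Cre liver it stayed at 1.92 (1.81 to 2.04).

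**Figure D5:**
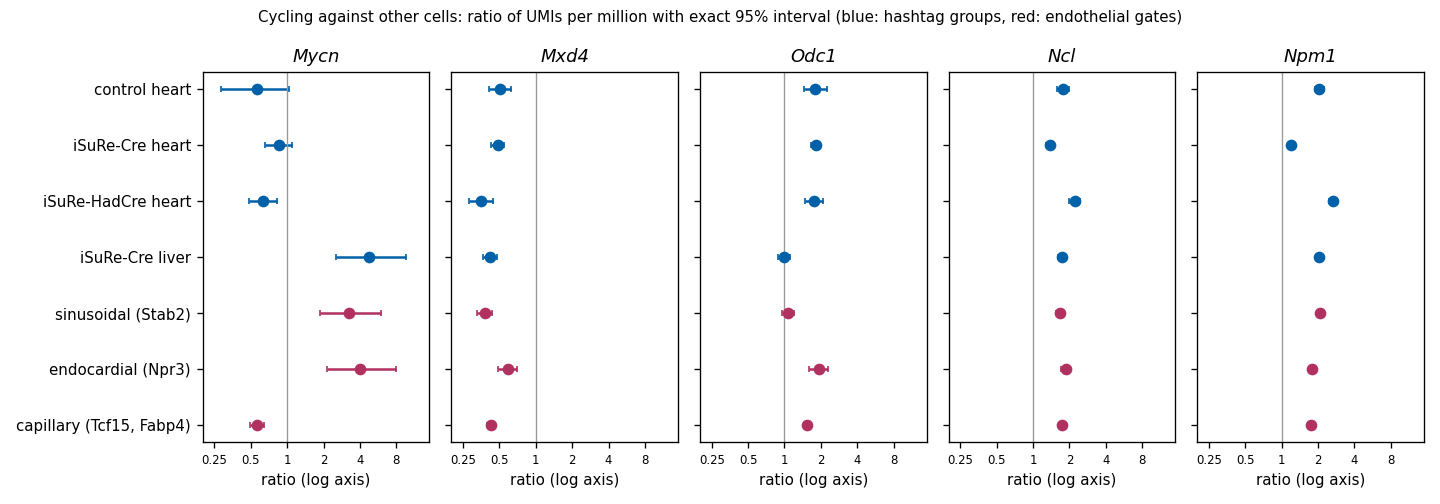
Ratio of CPM in cycling against other cells (log axis, exact 95% intervals) for Mycn, Mxd4, Odc1, Ncl and Npm1 in 4 hashtag groups (blue) and 3 endothelial gates (red), where 1 means no difference. Mxd4 lies left of 1 and Ncl and Npm1 right of 1 in all 7 rows, while Mycn lies at 0.560 in capillary-gated and at 3.26 and 3.98 in sinusoidal and endocardial cells.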

How the data were processed

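The authors deposited an unfiltered matrix of raw counts (UMIs per gene and barcode), with no normalization, made with Cell Ranger 7.1.0 per the submitters' processing notes, on GRCm38 with Ensembl 98 genes and added transgene sequences. The 2 labelled samples are the gene and hashtag reads of 1 library, and hashtags were matched to groups by number. A further 7 hashtag and multiplexing features without a group were not used. Counting across near-identical copies of Npm1 and other members was not checked.

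UMIs were summed over ECs of a group and divided by their total. The quality and Cdh5 limits follow the methods. Fixed hashtag minimums replaced the HTODemux calls used there. The WPRE limit of 0.5 given there was applied only as an alternative. It kept 145 of 435 iSuRe-Cre and 292 of 311 iSuRe-HadCre heart ECs. In liver it kept 379 of 858 and 66 of 76, so most iSuRe-Cre ECs used here fell below it. Barcodes with several hashtags were removed as doublets, with no caller. Cells in more than 1 non-endothelial gate were left out, whereas cells in more than 1 endothelial gate counted in each. The members, lists and gates were chosen with earlier results of these data known. Named list genes are the 3 highest or lowest ratios of a list with at least 50 UMIs. Lists covered the MAX network, polyamine, nucleolar, translation and metabolism, turnover and cell cycle genes. Intervals and calls were tested on simulated data. Alternatives changed the Cdh5, WPRE, hashtag and mitochondrial limits, averaging, scaling, free RNA, cycling cells and UMI minimum. Python 3.11.15, numpy 2.4.6, scipy 1.17.1, pandas 2.3.3 and matplotlib 3.10.9 were used.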

Additional observations from a re-analysis of the deposited data

Results flagged for a closer look

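Mxd4 moved in opposite directions with iSuRe-Cre in the 2 tissues, to 0.766 times control in heart and 1.25 times control in liver, each with a counting interval that left out 1. The difference between the tissues was not tested, and the control liver cells held little of the sinusoidal markers for their tissue label.

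Cycling cells moved in opposite directions in 2 members at the cells' own depths. Mycn in cycling against other cells had a ratio of 4.75 in the liver of iSuRe-Cre pups and 0.632 in the heart of iSuRe-HadCre pups, and of 3.26 in sinusoidal, 3.98 in endocardial and 0.560 in capillary-gated cells. Myc had a ratio of 1.42 in capillary-gated and 0.659 in sinusoidal cells. In cells of 5000 to 20000 UMIs the Myc ratio was 1.05 (0.688 to 1.60) in capillary-gated and 0.731 (0.447 to 1.15) in sinusoidal cells. Neither of those intervals left out equal levels, so opposite directions of Myc were not resolved in that range. The differences between groups and between gates were not tested.

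Barcodes with no hashtag entered no comparison between groups. In the 5585 of them that were Cdh5-positive, Odc1 was at 196, Ncl at 682 and Npm1 at 1494 CPM, with intervals above those of both control groups. Their median depth was 4220.0 UMIs, and their allele and tissue are not known.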

How the results depend on the processing

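No paired analysis was possible because each group is 1 hashtagged sample. With 1 sample a group, differences between pups cannot be seen, and depth limits Myc in heart and Mycl throughout. Over the 12 alternatives listed at the start, 94 of 108 counts of members past 1.5-fold stayed within 1.5 times the reported count and 14 did not. In control liver against control heart (1 reported) the count was 4 with at least 1 Cdh5 UMI, with the median of ratios scale and in cells without a cycling gene UMI, 2 with a hashtag minimum of 10 and with free RNA subtracted, and 0 with the second hashtag below 1/3 of the first and with a minimum of 200 UMIs. In iSuRe-HadCre against control liver (0 reported) it was 2 with a hashtag minimum of 10, and 1 with the mitochondrial limit at 10%, in cells without a cycling gene UMI and with a minimum of 20 UMIs. In iSuRe-HadCre against control heart (2 reported) it was 1 with the median of ratios scale, where Odc1 was 1.49, and 1 in cells without a cycling gene UMI. In iSuRe-Cre against control heart (2 reported) it was 1 in the latter cells. In cells of 5000 to 20000 UMIs, added after seeing the data, it was 1 there and 1 in iSuRe-HadCre against iSuRe-Cre heart (2 reported). The cause was not tested. The median of ratios scale shifted the heart ratios by 0.08, -0.14 and -0.22 (log2) for iSuRe-Cre against control, iSuRe-HadCre against control and iSuRe-HadCre against iSuRe-Cre. Over all 13 alternatives the ratio of Mycn in heart ran from 1.37 to 1.91, 3.48 to 4.90 and 1.97 to 3.12 in these comparisons, and that of Odc1 from 2.31 to 4.23, 1.39 to 3.18 and 0.485 to 0.815. No called member ratio changed sides of 1 under the alternatives listed at the start, though the UMI minimums could not move a ratio. Of 860 member ratios under these alternatives, called or not, 129 left the reported counting interval. Of 384 gate levels 75 did. In cells of 5000 to 20000 UMIs the Npm1 ratio of cycling cells reversed in chondrocyte (0.911) and mesenchymal gates (0.985).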
